A study of Mus musculus with 12 samples.

Results

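The genes examined here were 10 antimicrobial genes of epithelia, namely the beta-defensin genes Defb1, Defb3, Defb4, Defb6 and Defb14, together with Camp, Lcn2, Slpi, Wfdc12 and Pglyrp1. They were chosen by symbol and function, with earlier results of these data known, and all 10 were among the 24477 genes tested. Each gene had a value in each of the 12 samples. The samples were laser microdissected epithelial cells from the tongues of 12 male CBA mice, 1 Affymetrix Mouse Gene ST 2.0 array per mouse. Normal mucosa came from 3 control mice that received no 4-nitroquinoline 1-oxide (4-NQO), a DNA-adduct-forming carcinogen, and had ages of 24, 12 and 20 weeks for replicates 1 to 3. Hyperplasia (20, 16 and 20 weeks), dysplasia (16, 24 and 16 weeks) and tumor (20, 16 and 24 weeks) each came from 3 of the 9 mice that received 100 ug/mL 4-NQO in drinking water for 8 weeks. Lesions were typed by histology, dysplasia was not graded, and every lesion came from a treated mouse, so lesion stage and exposure to the carcinogen cannot be told apart against normal mucosa.

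Antimicrobial peptides are small, mostly cationic proteins that keratinocytes and phagocytes release onto mucosal surfaces, where they bind and disrupt microbial membranes. Beta-defensins hold a fold stapled by disulfide bonds, and some of them also attract immune cells through chemokine receptors. Other proteins of this defense act by withholding iron (lipocalin 2), by cutting or binding the bacterial wall (peptidoglycan recognition proteins), or by blocking serine proteases (the whey acidic protein family, to which Slpi and Wfdc12 belong). In stratified epithelia the inducible genes of this group respond to interleukin 1, interleukin 17 and interleukin 22 and to microbial ligands.

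The 5 beta-defensin genes all lie on chromosome 8. In the order of the RefSeq annotation of coding genes, Defb14, Defb4 and Defb6 were direct neighbours with 0 coding genes between them, Defb46 and Defb5 stood between Defb6 and Defb3, and 41 coding genes separated Defb3 from Defb1. Wfdc12 and Slpi lie on chromosome 2 with 8 coding genes between them. Promoter sequences (RefSeq, GRCm38.p6) were at hand for 7 of the 10 genes, all but Defb1, Defb4 and Defb14. The promoters of Defb3 and Defb6 are shown because these genes had the most similar promoters of all 7. Each line gives the 250 bases before the annotated start, 5′ to 3′, with the octamer ATTTGCAT and the letters TATATAA in capitals.
Defb3: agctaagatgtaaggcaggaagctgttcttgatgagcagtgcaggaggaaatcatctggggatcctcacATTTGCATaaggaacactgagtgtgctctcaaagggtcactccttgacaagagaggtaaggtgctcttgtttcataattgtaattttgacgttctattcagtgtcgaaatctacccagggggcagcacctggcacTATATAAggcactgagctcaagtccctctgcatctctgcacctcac
Defb6: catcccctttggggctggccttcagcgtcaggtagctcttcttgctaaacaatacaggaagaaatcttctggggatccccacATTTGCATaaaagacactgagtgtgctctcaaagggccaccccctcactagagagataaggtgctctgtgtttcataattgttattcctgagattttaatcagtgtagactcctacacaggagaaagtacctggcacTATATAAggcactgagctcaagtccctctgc
The Defb3 sequence is chr8:19293111-19293360 and the Defb6 sequence chr8:19225228-19225477, both on the plus strand. They were identical at 196 of 235 aligned bases (83.4%), whereas the other 20 pairs of promoters were identical at 57.1 to 69.4% of aligned bases. The octamer, the binding motif of POU factors, began at position -181 in Defb3 and -168 in Defb6 and was absent from the other promoters examined, while 1.6% of 32851 promoters of the same length held it on either strand. TATATAA began at position -46 in Defb3 and at -31 in Defb6, and 3.04% of all promoters held it. All 8 motifs were chosen after the promoters had been read, and these 2 because both promoters held them, so the counts are descriptions. The usual TATA box spelling TATAAA, searched first, was found in 0 of the 7 promoters (12.4% of all), as were TGANTCA for AP-1 (6.75%) and TTCNNNGAA for STAT factors (7.02%). The loose C/EBP motif TTGCNNNA was found in 7 of the 7 promoters (29.3% of all), a loose NF-kB motif in 5 (45.8%) and the E-box CACCTG in 3 (17.2%). All were searched on both strands, and where motifs overlapped each was counted.

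The mean log2 value of 16 keratinocyte markers lay between 10.9 and 11.5 in every mouse. Of these markers, Krt4, a keratin of differentiated mucosa, fell by 2.97 in tumors (adjusted p = 0.0286), Dsg3, a desmosomal cadherin, rose by 1.29 (adjusted p = 0.0388), and Krt16, a keratin of activated epithelium, was called over all lesions (0.65, adjusted p = 0.039). Markers of other cell types differed between libraries. The mean of 18 skeletal muscle markers was 9.18 in normal 1, 8.26 in normal 3, 8.90 in hyperplasia 1 and 8.12 in hyperplasia 2, against 5.61 to 6.88 in the other 8 mice. Acta1, skeletal muscle actin, was 3.34 lower in tumor than in normal mucosa (adjusted p = 0.169). The mean of 12 T and NK cell markers was 7.23 in dysplasia 1, against 6.09 and 5.99 in dysplasia 2 and 3 and 5.47 to 5.89 elsewhere. Cd3g and Cd3d were called higher in dysplasia (2.95 and 2.94), the macrophage gene C1qc in tumors (1.66) and the endothelial gene Cdh5 in tumors (1.33), while the fibroblast gene Dcn fell by 3.06 in tumors. In dysplasia, C1qc and Dcn differed from normal mucosa by 1.72 and -3.29. Among gland and taste cell markers none was called, and Amy1 and Gnat3 had the largest differences in tumors (-0.69 and -1.58). All 3 tumor samples had an RNA integrity number above that of all normal samples. In such samples, fewer cells of a type and less RNA per cell cannot be told apart.

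**Figure D1:**
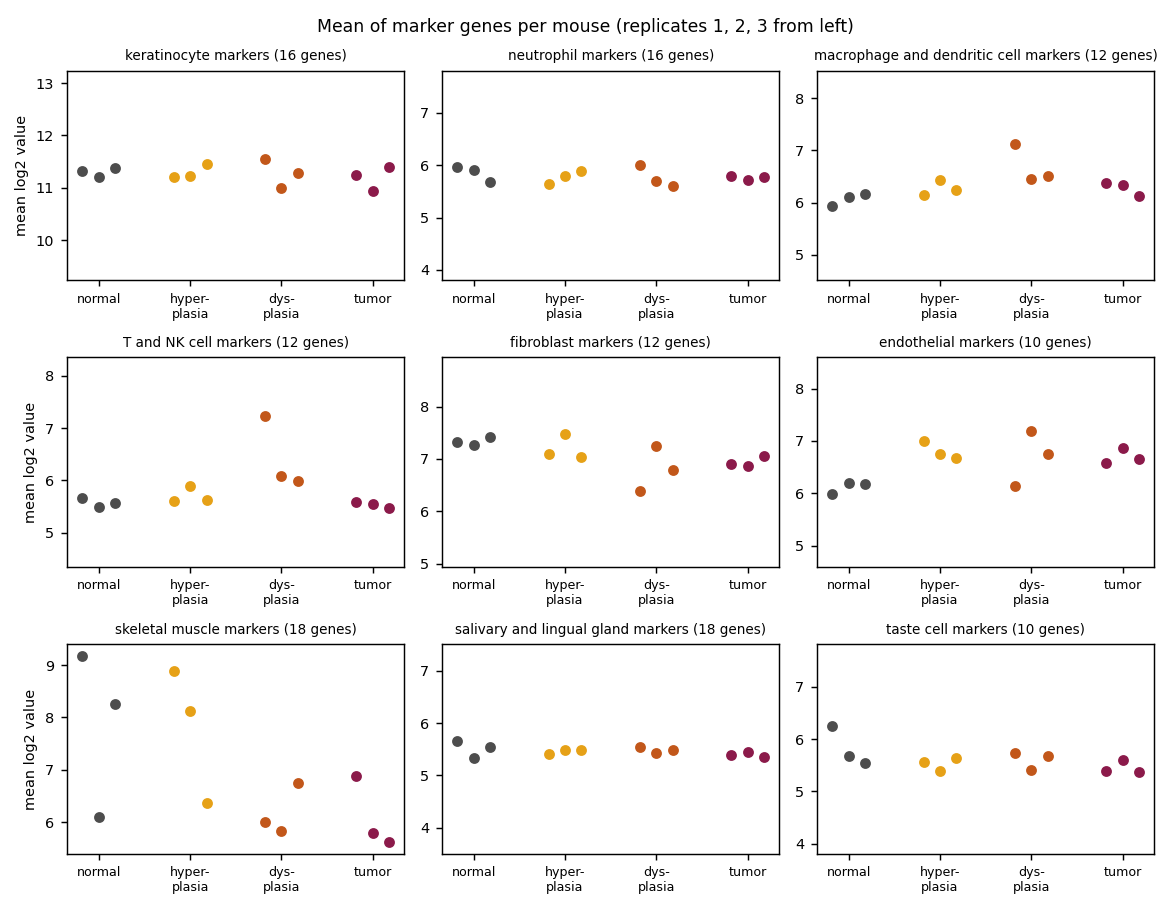
Mean log2 value of each marker list per mouse, by stage, with 1 point per mouse and a span of 4 log2 units in every panel. Skeletal muscle markers ranged from 5.61 to 9.18 and were highest in normal 1, whereas neutrophil markers stayed between 5.60 and 6.01.

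In tumors, 7 of the 10 antimicrobial genes had means below normal mucosa and 3 above it. Defb4 fell in tumors by 1.42 on the log2 scale and was the single gene of the 10 called in any of the 6 comparisons. Defb6 (1.92 lower), Slpi (1.12 lower) and Defb3 (1.04 lower) were lower in tumors without a call, Defb1 was 1.46 higher without a call, and Lcn2 was highest in dysplasia. In the tumor comparison, 1 of 10 genes was called at an adjusted p of 0.05 from limma, against 1.97% of all genes tested, and 1.23% were called lower. An unadjusted limma p under 0.05 was reached by 8 of 10 genes (16.9% of all genes). Of the 10, 1 was more than 1 higher and 4 more than 1 lower on the log2 scale, where 2.4% and 3.09% of all genes were. The tumor and normal values did not overlap for 5 of the 10, against 23.3% of all genes. The median tumor difference was -0.91 over the 10 genes and -0.05 over all genes. The 10 genes were chosen with earlier results of these data known, so these shares and those of the other comparisons are descriptions.

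In dysplasia against normal mucosa, 0 of 10 genes were called by limma (0.764% of all genes) and 5 had an unadjusted p under 0.05 (12.2%). Of these genes, 1 was more than 1 higher (1.84% of all genes) and 3 more than 1 lower (2.38%), and 5 did not overlap with normal mucosa (16% of all genes). In hyperplasia 0 of 10 were called (0.0654%), 0 had an unadjusted p under 0.05 (9.76%), 0 differed by more than 1 (2.77%) and 3 did not overlap with normal mucosa (16%). Over all lesions 0 of 10 were called by limma (2.02%), 5 had an unadjusted p under 0.05 (16.4%) and 2, Defb4 and Camp, did not overlap with normal mucosa (4.87%). Between consecutive lesions, limma called 0 of 10 genes in dysplasia against hyperplasia (0%), with 1 at an unadjusted p under 0.05 (4.54%) and 0 without overlap (8.78%). In tumor against dysplasia 0 of 10 were called (0.00409%), 1 had an unadjusted p under 0.05 (6.34%) and 2, Defb3 and Pglyrp1, did not overlap (12.2%). The moderated F test across the 4 stages called 0 of the 10 (0.646% of all genes), and the lowest adjusted p was that of Defb4 (0.105). The comparisons with normal mucosa share the same 3 control mice. No hyperplasia sample shared a preparation day with another stage, so stage and day cannot be told apart where hyperplasia is compared.

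**Figure D2:**
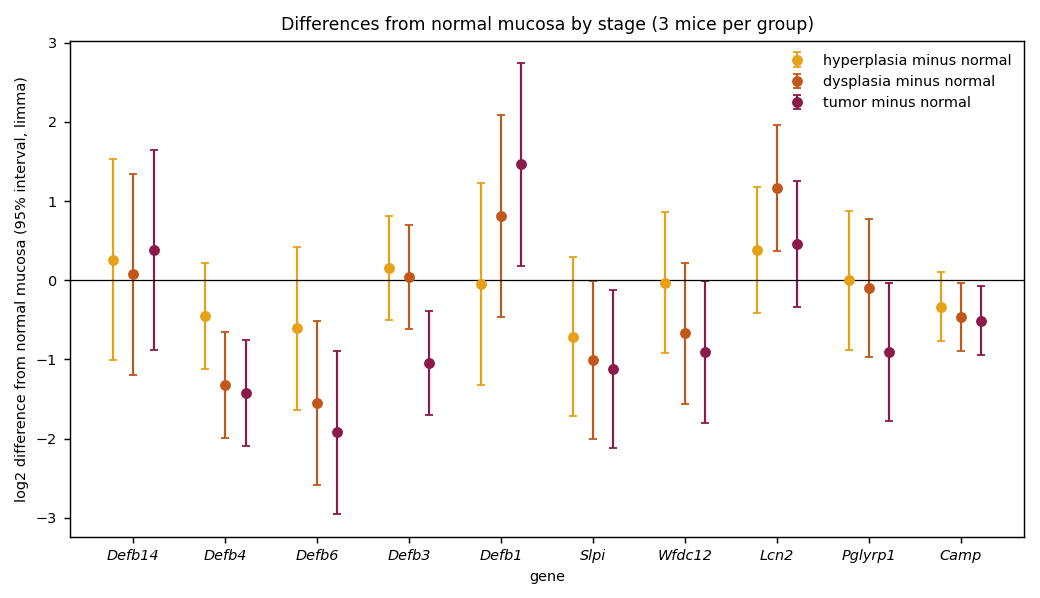
Log2 difference from normal mucosa for each gene in hyperplasia, dysplasia and tumor, 3 mice per group, with 95% intervals from limma that are not adjusted for the number of genes. The intervals of Defb4, Defb6, Slpi and Camp lay below 0 in dysplasia and tumor, and that of Defb14 included 0 at each stage.

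Defb4 encodes an inducible beta-defensin, the mouse counterpart of human beta-defensin 2. Its log2 values were 12.38, 12.56 and 12.21 in normal mucosa and 11.89, 11.99 and 11.91 in hyperplasia. They were 11.92, 10.62 and 10.64 in dysplasia and 10.59, 11.20 and 11.10 in tumors. Every lesion lay below every normal sample, and dysplasia 1, the sample with the most T and NK cell RNA, stood with the hyperplasias rather than with the other dysplasias. Normal mucosa had a mean of 12.39 ± 0.17 (SD, n = 3), hyperplasia of 11.93 ± 0.05, dysplasia of 11.06 ± 0.74 and tumors of 10.96 ± 0.33 (n = 3 each). The difference was -0.45 in hyperplasia (standard error 0.31, adjusted p = 0.679), -1.32 in dysplasia (adjusted p = 0.0792) and -1.42 in tumors (2.68-fold lower, 95% interval -2.10 to -0.75, adjusted p = 0.0368). The mean of all lesions was 1.07 lower than normal mucosa (adjusted p = 0.0536). The largest step between neighbouring stages was from hyperplasia to dysplasia (-0.87, adjusted p = 1), where stage and preparation day cannot be told apart. Tumor and dysplasia differed by -0.10 (95% interval -0.77 to 0.57).

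The direction of Defb4 in tumors held in all 27 alternatives, with differences from -1.97 to -1.11, but the call held in 12, 1 of them on an unadjusted p. The call ended when any mouse of the normal, hyperplasia or tumor groups was left out (adjusted p = 0.0518 to 0.129), with age as a covariate (adjusted p = 0.0504), with RNA integrity as a covariate (-1.11, adjusted p = 0.351) and within preparation days (adjusted p = 0.115). Without dysplasia 1, Defb4 was called in dysplasia also. The -1.97 was the value within preparation days. It equals the difference of tumor 1, the lowest tumor, from normal 2, the highest normal sample, which share a day, and is not a separate observation. On the day shared by tumors 2 and 3 and dysplasia 1 the tumors differed from the dysplasia by -0.77. The genes whose values followed Defb4 most closely over the 12 samples were Asprv1 (Pearson r = 0.976), Lce1c (0.974) and Anxa9 (0.972), all points sharing the same arrays and normalization.

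Defb6, a beta-defensin gene next to Defb4, had the largest difference of the 10 genes in tumors. Its values were 9.91, 10.64 and 10.20 in normal mucosa, 8.76, 10.77 and 9.40 in hyperplasia, 8.92, 8.16 and 9.02 in dysplasia and 7.90, 9.12 and 7.97 in tumors. All dysplasias and tumors lay below all normal samples, while hyperplasia 2 lay above them and hyperplasia 1 and 3 below. Defb6 differed from normal mucosa by -0.61 in hyperplasia (adjusted p = 0.727), -1.55 in dysplasia (adjusted p = 0.189) and -1.92 in tumors (3.79-fold lower, standard error 0.47, 95% interval -2.95 to -0.89, adjusted p = 0.0616). Within the shared preparation day tumor 1, the lowest tumor, differed from normal 2, the highest normal sample, by -2.74. Tumors 2 and 3 differed from dysplasia 1 on their shared day by -0.37. The tumor difference was called in 6 of 27 alternatives, 1 of them on an unadjusted p, and was below 0 in all of them.

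Defb3, another inducible beta-defensin gene, lay near its normal level in hyperplasia and dysplasia and was lower in tumors. Its values were 12.44, 12.40 and 12.24 in normal mucosa, 12.43, 12.82 and 12.30 in hyperplasia, 11.89, 12.71 and 12.60 in dysplasia and 11.44, 11.85 and 10.65 in tumors. The tumors lay below all other 9 samples, the nearest being dysplasia 1. The difference from normal mucosa was 0.16 in hyperplasia (95% interval -0.50 to 0.82), 0.04 in dysplasia (95% interval -0.61 to 0.70) and -1.04 in tumors (2.06-fold lower, standard error 0.30, adjusted p = 0.101). Tumor and dysplasia differed by -1.09 (standard error 0.30, unadjusted p = 0.00358, adjusted p = 0.663). On their shared day tumors 2 and 3 differed from dysplasia 1 by -0.64, tumor 2 lying close to it. Tumor 1 differed from normal 2 on their shared day by -0.96. Thus Defb3 and Defb6, with the similar promoters shown above, differed in dysplasia by 0.04 and -1.55 from normal mucosa, and the difference between these values was not tested. Nor was it tested whether probes of either gene also bind the transcript of the other. The genes with the values closest to Defb3 were A730049H05Rik (r = 0.893), Exoc6 (0.879) and Adgb (0.871) over the 12 samples.

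Defb1, the constitutively made beta-defensin of many epithelia, had values of 6.81, 8.26 and 6.26 in normal mucosa and 6.39, 6.52 and 8.29 in hyperplasia. In dysplasia they were 7.47, 8.73 and 7.56 and in tumors 8.99, 7.97 and 8.76. The groups overlapped at every stage, and the difference in tumors was 1.46 (2.75-fold higher, 95% interval 0.18 to 2.74, adjusted p = 0.232). The lowest 4 values belonged to normal 1, normal 3, hyperplasia 1 and hyperplasia 2, which are the 4 samples with the highest skeletal muscle markers, and the part of muscle RNA in the difference was not tested. Within the shared day tumor 1 was 0.73 above normal 2, a sample low in muscle markers. With RNA integrity as a covariate the tumor difference was 0.78, and without the 4 samples of an RNA integrity number under 6 it was 0.31. The value of 0.31 and that of the shared day both use normal 2, the highest normal sample, as the only normal mouse.

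Defb14, the mouse counterpart of human beta-defensin 3, varied more between mice of a stage than between stages. Its values were 10.39, 10.90 and 9.99 in normal mucosa, 10.59, 9.91 and 11.56 in hyperplasia, 12.00, 10.14 and 9.36 in dysplasia and 11.10, 11.03 and 10.30 in tumors. Both the highest and the lowest value belonged to dysplasia, the highest to dysplasia 1. The tumor difference was 0.38 (95% interval -0.88 to 1.65, adjusted p = 0.788). It ranged from 0.17 without normal 3 to 0.64 without tumor 3, with 0.24 without tumor 1 and 0.62 without normal 2, and was 0.78 with RNA integrity as a covariate.

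The beta-defensin family on the array comprised 43 symbols, of which 38 were not among the 5 genes described. Of these 38, 4 had a mean above the median of all values (6.22), namely Defb10, Defb25, Defb36 and Defb47, and 0 were called by limma in any comparison. Their tumor differences were -1.01 for Defb10 (adjusted p = 0.214), -0.25 for Defb25, -0.21 for Defb36 and 0.09 for Defb47. Defb46 and Defb5, the genes that lie between Defb6 and Defb3, had tumor differences of 0.08 and -1.51 (adjusted p = 0.946 and 0.156). The median tumor difference of the 38 was -0.22.

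**Figure D3:**
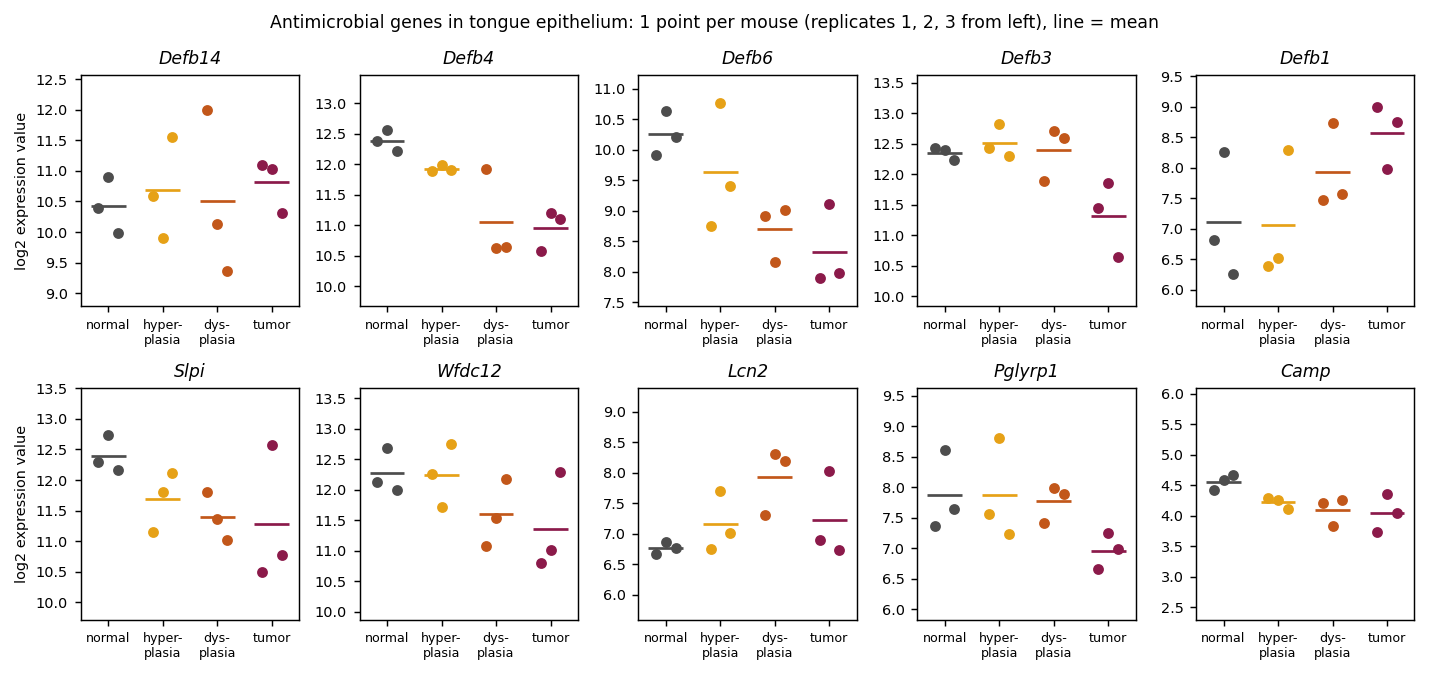
Log2 expression value of each gene in each mouse by stage, with the line at the group mean and a span of 3.8 log2 units on every axis. The 9 lesions lay below the 3 normal samples for Defb4, the 3 tumors had the lowest values of Defb3, with dysplasia 1 next at 11.89, and Defb14 spread widely in dysplasia, from 9.36 to 12.00.

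Slpi encodes an inhibitor of neutrophil elastase that also kills bacteria. Its values were 12.30, 12.73 and 12.17 in normal mucosa, 11.16, 11.80 and 12.11 in hyperplasia, 11.81, 11.36 and 11.01 in dysplasia and 10.49, 12.57 and 10.77 in tumors. All hyperplasias and dysplasias and 2 of the 3 tumors lay below all normal samples, and tumor 2 lay within the normal range. The difference was -0.71 in hyperplasia (adjusted p = 0.664), -1.01 in dysplasia (adjusted p = 0.403) and -1.12 in tumors (standard error 0.46, adjusted p = 0.241). Without tumor 2 the tumor difference was -1.77 and passed the threshold (adjusted p = 0.0405), whereas without tumor 1 it was -0.73 (adjusted p = 0.514) and without tumor 3 -0.87 (adjusted p = 0.466). Within the shared day tumor 1, the lowest tumor, differed from normal 2, the highest normal sample, by -2.24. Tumors 2 and 3 differed from dysplasia 1 on their shared day by -0.14.

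Wfdc12, a member of the same whey acidic protein family with antibacterial activity, had values of 12.13, 12.69 and 12.00 in normal mucosa and 12.25, 11.72 and 12.75 in hyperplasia. In dysplasia they were 11.08, 11.54 and 12.18 and in tumors 10.80, 11.01 and 12.29. Dysplasia 3 and tumor 3 lay within the normal range and the other dysplasias and tumors below it. The tumor difference was -0.91 (95% interval -1.80 to -0.02, adjusted p = 0.286). It was -1.37 without tumor 3 and -1.68 with RNA integrity as a covariate. On their shared day tumor 1, the lowest tumor, differed from normal 2, the highest normal sample, by -1.89. Tumors 2 and 3 differed from dysplasia 1 on their shared day by 0.57.

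Lcn2, which binds bacterial siderophores, was highest in dysplasia. Its values were 6.67, 6.86 and 6.77 in normal mucosa, 6.76, 7.70 and 7.005 in hyperplasia, 7.30, 8.31 and 8.19 in dysplasia and 6.89, 8.03 and 6.74 in tumors. All dysplasias lay above all normal samples, and of the tumors tumor 2 stood apart at a level close to the dysplasias. The difference was 1.16 in dysplasia (2.24-fold higher, standard error 0.37, adjusted p = 0.204) and 0.45 in tumors (95% interval -0.34 to 1.25, adjusted p = 0.57). The tumor value rested on tumor 2, as it was 0.05 without that mouse and 0.69 without tumor 3. On their shared day tumor 1 differed from normal 2 by 0.03.

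Pglyrp1, a peptidoglycan recognition protein also stored in neutrophil granules, had values of 7.36, 8.60 and 7.64 in normal mucosa, 7.57, 8.80 and 7.23 in hyperplasia, 7.41, 7.99 and 7.90 in dysplasia and 6.66, 7.25 and 6.98 in tumors. The tumors lay below all normal and dysplasia samples, with a difference from normal mucosa of -0.90 (95% interval -1.78 to -0.03, adjusted p = 0.279). This was -0.54 without normal 2, the normal sample with the highest value, -1.64 without the samples of an RNA integrity number under 6 and -1.95 within the shared day. The values of -1.64 and -1.95 both use normal 2 as the only normal mouse. That of the shared day also uses the lowest tumor alone, so they are not separate observations. The mean difference from normal mucosa was -0.00 in hyperplasia and -0.10 in dysplasia.

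Camp encodes the precursor of the mouse cathelicidin peptide. It was among the 30% of genes with the lowest means, with values of 4.43, 4.58 and 4.66 in normal mucosa, 4.30, 4.26 and 4.11 in hyperplasia, 4.20, 3.83 and 4.26 in dysplasia and 3.73, 4.36 and 4.05 in tumors. Every lesion lay below every normal sample, by small amounts, and the tumor difference was -0.51 (standard error 0.20, adjusted p = 0.218), or -0.85 within the shared day. Because Camp, Lcn2 and Pglyrp1 are also made by neutrophils, neutrophil markers were examined beside them. The mean of 16 neutrophil markers ranged from 5.69 to 5.96 in normal mucosa, 5.64 to 5.88 in hyperplasia, 5.60 to 6.01 in dysplasia and 5.71 to 5.80 in tumors, and 0 of the 16 were called. The largest tumor difference among them was that of Stfa2l1 (0.95, adjusted p = 0.691).

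Other antimicrobial effectors and the pathway that induces these genes were examined as lists. Of 38 measured effectors, limma called 2 higher in hyperplasia (0.0654% of all genes in either direction) and 3 higher in dysplasia (0.764%). In tumors it called 2 higher and 1 lower (1.97%), with a median tumor difference of -0.14. S100a8 and S100a9, the calprotectin subunits that bind zinc and manganese, had the largest differences, with rises of 5.31 and 6.53 in dysplasia (adjusted p = 2.14e-05 and 2.12e-05). At that stage Defb4 and Defb6 were lower without a call (adjusted p = 0.0792 and 0.189). Wfdc18, a whey acidic protein gene, rose in dysplasia (3.42, adjusted p = 0.0324). Its values were 8.27, 11.13 and 10.83 there and 6.21, 6.21 and 7.11 in tumors, and tumor against dysplasia was not called (adjusted p = 0.486). Adm, whose peptide adrenomedullin has antibacterial activity, was 1.70 higher over all lesions (adjusted p = 0.0468). Bpifa1, a secreted airway and oral protein that was named after its values were seen, fell by 0.84 in tumors (adjusted p = 0.0461).

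Of 16 measured inducing cytokines, 2 were called higher over all lesions and 0 lower, where 2.02% of all genes were called. These were Il1b (1.35, adjusted p = 0.0432) and Il1f9, an epithelial cytokine of the interleukin 1 family (1.34, adjusted p = 0.0309). In dysplasia 1 cytokine was called (0.764% of all genes) and in tumors 0 (1.97%). Of 22 receptors that induce antimicrobial genes 1 was called in dysplasia (0.764% of all genes). It was Nod2, an intracellular sensor of peptidoglycan fragments, which rose by 1.15 (adjusted p = 0.0141). In tumors 0 of these receptors were called (1.97%). Of 25 adaptors and transcription factors 3 were called higher over all lesions and 0 lower (2.02%), 2 in dysplasia (0.764%) and 1 in tumors (1.97%). The 3 over all lesions were Myd88, the adaptor of toll-like and interleukin 1 receptors (0.93), Zc3h12a, an RNase that limits interleukin 17 signaling (0.89), and Fosl1, an AP-1 subunit (1.94). Of 16 serine proteases and inhibitors 1 was called in tumors (1.97% of all genes). This was Serpinb1a, an inhibitor of neutrophil proteases, which rose by 1.75 (adjusted p = 0.0202). Of 11 receptors of antimicrobial peptides 0 were called, and the largest tumor difference was that of Ccr2 (0.87, adjusted p = 0.374). The median tumor differences were -0.01 for the cytokines, -0.09 for the inducing receptors, 0.31 for the adaptors and factors, -0.08 for the proteases and inhibitors and -0.09 for the peptide receptors, beside -0.05 over all genes.

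**Figure D4:**
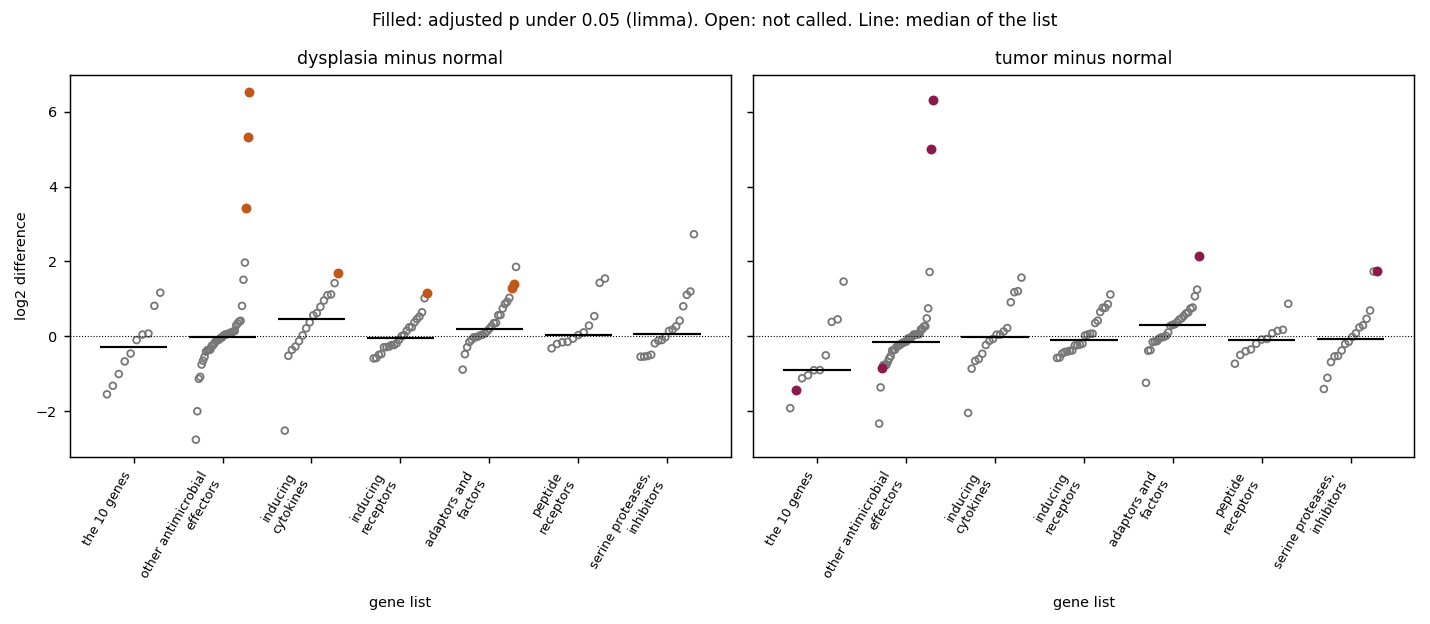
Log2 difference from normal mucosa of each measured gene in dysplasia (left) and tumor (right), by list, ordered by size within a list. Filled points passed an adjusted p of 0.05 from limma and lines are list medians, which in tumors were -0.91 for the 10 antimicrobial genes and 0.31 for the adaptors and factors.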

How the data were processed

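The deposited log2 values were made by the authors through quantile normalization and RMA, 1 probe set per Entrez gene (24479 probe sets, 1198 of them without a symbol). Software versions and the genome build are not given in the sources used here. Groups came from the sample labels, RNA integrity and preparation day from the study's sample table. Where a symbol had 2 probe sets, that with the higher mean was used. limma 3.58.1 in R 4.3.3 fitted 4 group means over 12 samples with empirical Bayes moderation, and p-values were Benjamini-Hochberg adjusted over 24477 genes at 0.05. Every adjusted p is from this fit unless an alternative is named beside it. The fit was tested on simulated data. Promoters were aligned with Biopython 1.88. The 10 genes and all lists were chosen with earlier results of these data known, and the motifs after the promoters were read. The named genes are all 10, up to 4 called genes of each list by size of difference or else the 1 with the largest tumor difference, the beta-defensin genes with a mean above the median of all values, and the 3 genes most like each of 2 members. Bpifa1, Defb46 and Defb5 were named outside this rule, after their values were seen. The alternatives are given in the closing section. Arrays have no sequencing depth, and the number of mice limits the precision.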

Additional observations from a re-analysis of the deposited data

How the results depend on the processing

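Between single stages, an exact permutation test of 3 against 3 cannot go below 0.1. Camp lay among the 30% dimmest genes. In tumor against normal mucosa the main count of 1 gene of the 10 became 2 with the 30% dimmest genes left out or with only the groups compared, 0 with RNA integrity (RIN) as a covariate, with preparation day as a fixed block, without the samples of RIN under 6 or with the methods' t-test after Benjamini-Hochberg, and 3 with that test unadjusted. With each mouse left out in turn it was 0 to 1. The gene called was Defb6 rather than Defb4 with age as a covariate (adjusted p = 0.0356) and without hyperplasia 1 or 2, and Slpi without tumor 2. The replicate numbers do not pair the samples (18 same-number pairs with correlations of deviations from -0.11 to 0.11, 1 of them over 0.1), and with the replicate block the count was 0 and Defb4 had an adjusted p of 0.0636. The count over all genes of 483 was 17 with RIN as a covariate, 42 with the fixed day block, 184 without the samples of RIN under 6, 3430 with the unadjusted t-test and 1 after adjustment, and 140 to 721 with each mouse left out.

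In dysplasia the count of 0 was 5 with the unadjusted t-test and 1 without normal 1 and dysplasia 1 or without the samples of RIN under 6, and 0 to 1 with each mouse left out. Over all lesions it was 1 with quantile normalization again, the dimmest genes left out, an intensity trend, age as a covariate, the random day block, or without normal 1 and dysplasia 1, 4 with the unadjusted t-test, and 0 to 1 with each mouse left out. The unadjusted t-test gave 2 in hyperplasia and 1 in tumor against dysplasia. Across the 4 stages the count of 0 became 1 without normal 1 and dysplasia 1, and 0 to 1 with each mouse left out. Defb14 turned to -0.0885 in tumors without the samples of RIN under 6, which leaves 1 normal mouse that is assumed to vary like the others. The fixed day block could be fitted only for normal mucosa, dysplasia and tumor, because no hyperplasia shared a preparation day with another stage. The causes were not tested.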
